A study of Mus musculus with 6 samples.

Results

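The 10 neuropeptide genes described here are Npy, Sst, Vip, Cck, Penk, Pdyn, Tac1, Tac2, Cort and Crh, chosen by name from the 15616 distinct gene names of the deposited tables. All 10 had a row in each of the 6 libraries. Total RNA came from the hippocampus of mice aged 6 months, in 3 wild-type (WT) libraries and 3 APP/PS1 libraries by label; APP/PS1 is a transgenic amyloid model that carries the APP695swe and PS1-dE9 mutations. The promoter of the transgenes, the strain and the sex of the mice are not given in the sources used here, nor is it said whether each library is a separate animal, so a p-value here speaks only of library-to-library spread, part or all of which may be technical. Values are read as FPKM, fragments counted relative to transcript length and to the mapped fragments of the library. Scaling by length allows a rough comparison between genes only. The read depth behind the values is unknown.

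Neuropeptides are made as larger precursor proteins, cut by proprotein convertases, trimmed by carboxypeptidase E, stored in dense core granules and released when neurons fire strongly, and they act on G protein-coupled receptors. In the hippocampus several of them mark classes of GABAergic interneuron: Sst (somatostatin) the cells that inhibit distal dendrites, Npy (neuropeptide Y) neurogliaform and ivy cells among others, Vip (vasoactive intestinal peptide) cells that inhibit other interneurons, and Cck (cholecystokinin) a class of basket cell. Pdyn (prodynorphin) is known from dentate granule cells and their mossy fibres. In bulk tissue, fewer cells of a type and less RNA per cell cannot be told apart.

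Several neuropeptide genes are textbook targets of CREB, a transcription factor activated by neuronal activity. CREB binds the cyclic AMP response element TGACGTCA, or the half-site CGTCA. The stretches shown are the 100 bases just before the annotated start of the members whose 250 upstream bases held such letters, from RefSeq (GRCm38.p6). They are shown because activity genes are set beside the members further on. Tac2, which had none, is shown because its values did not overlap between the labels. Fos, an activity gene, is shown for comparison. Capitals mark the element TGACGTCA, its relative TGCGTCA or the half-site on either strand.
Sst (chr16:23890845-23890944, minus strand): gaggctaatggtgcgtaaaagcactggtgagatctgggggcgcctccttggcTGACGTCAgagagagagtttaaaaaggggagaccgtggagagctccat
Vip (chr10:5639118-5639217, plus strand): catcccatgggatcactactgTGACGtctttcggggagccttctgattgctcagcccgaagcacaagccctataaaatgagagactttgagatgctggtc
Cck (chr9:121495695-121495794, minus strand): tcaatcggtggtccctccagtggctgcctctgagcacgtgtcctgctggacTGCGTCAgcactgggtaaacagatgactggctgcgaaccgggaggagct
Cort (chr4:149126764-149126863, minus strand): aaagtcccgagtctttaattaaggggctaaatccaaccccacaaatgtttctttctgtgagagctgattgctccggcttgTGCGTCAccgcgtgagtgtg
Tac1 (chr6:7554961-7555060, plus strand): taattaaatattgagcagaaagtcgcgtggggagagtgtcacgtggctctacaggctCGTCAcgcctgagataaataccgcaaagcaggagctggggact
Tac2 (chr10:127724378-127724477, plus strand): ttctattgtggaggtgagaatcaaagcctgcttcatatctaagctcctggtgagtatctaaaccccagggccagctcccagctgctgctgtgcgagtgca
Fos (chr12:85473790-85473889, plus strand): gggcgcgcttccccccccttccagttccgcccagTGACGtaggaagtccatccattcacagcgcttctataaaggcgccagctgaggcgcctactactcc

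Of the 10 members, 8 had a promoter in the RefSeq table, and Penk and Crh are named only. The full element TGACGTCA stood in the window of Sst alone among these 8, starting 48 bases before the start (position -48), while 1.55% of all windows of 250 bases held it. The half-site CGTCA, read on both strands (on the other strand it is spelled TGACG) and contained in the full element and in its relative, stood in the windows of Sst, Vip, Cck, Tac1 and Cort and in 17.8% of all windows. The relative TGCGTCA, searched on both strands, stood in those of Cck (position -49), Cort (position -20) and Tac1 (position -199, outside the stretch shown) and in 1.75% of all windows. These are matches of letters, not measured binding.

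The labels were first checked with App and Prnp. App encodes the amyloid precursor protein; its FPKM values were 69.8, 68.5 and 145.6 in WT replicates 1 to 3, and 153.1, 71.0 and 166.2 in APP/PS1 replicates 1 to 3, as labelled. By App, 2 libraries therefore went against their labels: WT replicate 3 and APP/PS1 replicate 2. Prnp (prion protein) was low and high in the same libraries as App. The 9 members that were tested are given by label and also in the 4 remaining libraries, a comparison chosen after the values were seen.

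Somatostatin and cholecystokinin transcripts made up most of the summed signal of these 10 genes. Averaged over the 6 libraries, Sst stood at 126 ± 13.4 FPKM, Cck at 73.0 ± 9.13, Npy at 23.9 ± 3.28 and Penk at 9.26 ± 1.62 (SD, n = 6). Sst alone took between 47.8% and 55.8% of the summed FPKM of the 10 genes in each library, and Sst, Cck and Npy together left between 7.04% and 9.15% to the other 7. In the library where each ranked lowest, Sst stood above 99.1% of the rows of the table, Cck above 97.8% and Npy above 89.0%. The low end held Pdyn at 2.80 ± 0.853 FPKM, Vip at 2.60 ± 0.280, Cort at 1.72 ± 0.769, Tac1 at 1.18 ± 0.128, Tac2 at 0.934 ± 0.216 and Crh at 0.709 ± 0.250. The order Sst, Cck, Npy, Penk, Pdyn held in 6 of 6 libraries without overlap of the ranges. Below that, every pair of neighbours overlapped in range: Pdyn was above Vip in 3 of 6 libraries, Vip above Cort in 5, Cort above Tac1 in 5, Tac1 above Tac2 in 6 and Tac2 above Crh in 5.

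**Figure D1:**
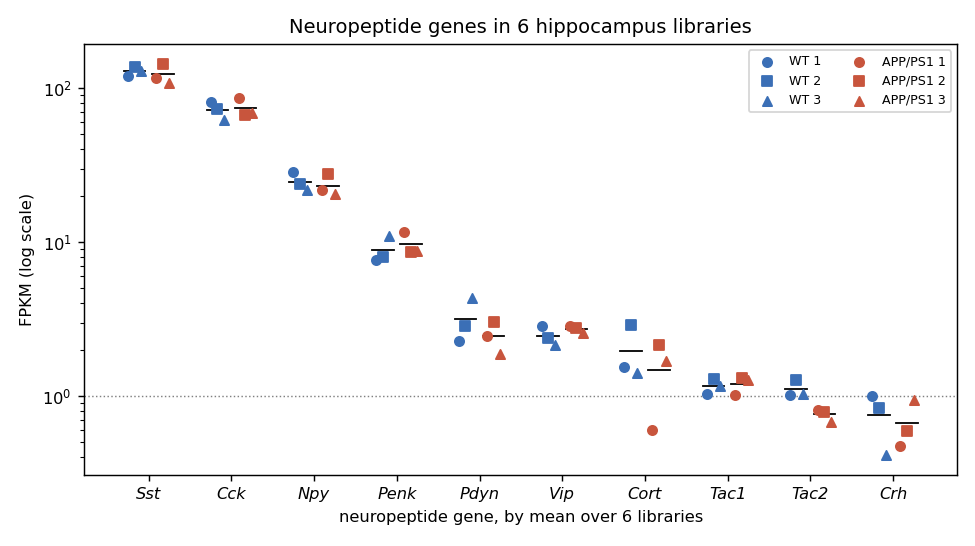
FPKM on a log axis for each neuropeptide gene (x axis, by mean level), with 1 point per library, blue for WT-labelled and red for APP/PS1-labelled, and a black line at each label's mean; the dotted line marks 1 FPKM. Sst, Cck, Npy and Penk lie in separate bands, the other genes overlap, and Tac2 is the gene whose APP/PS1-labelled points (0.677 to 0.815 FPKM) all lie under its WT-labelled points (1.02 to 1.27 FPKM).

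No neuropeptide gene passed the test between labels. With limma on log2(FPKM + 1) over 13700 genes, 0 of the 9 members that passed the filter (at least 1 FPKM in at least 3 libraries) had an adjusted p under 0.05, where 0.0219% of all genes tested did. An unadjusted p under 0.05 was reached by 1 of the 9, Tac2, against 6.69% of all genes tested (3.83% with lower values in the APP/PS1-labelled libraries, as Tac2 had). Of the 9, 4 had a positive and 5 a negative log2 difference with a median of -0.07, and of all genes 6794 were positive and 6906 negative with a median of -0.00089. Values of the labels did not overlap for 1 of the 9 members, again Tac2, against 11.9% of all genes (6.51% with the APP/PS1-labelled values below). These shares do not set the members apart from the genes at large.

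Among the interneuron peptides, Sst had 120.2, 138 and 129 FPKM in WT replicates 1 to 3 and 117, 144 and 108 FPKM in APP/PS1 replicates 1 to 3, an order kept for all values that follow. The APP/PS1-labelled libraries thus held both the highest and the lowest value, and the labels overlapped. The log2 difference was -0.07 ± 0.11 (SE), with a 95% interval from -0.33 to 0.18, equal to a ratio of FPKM + 1 between 0.796 and 1.13 (limma, adjusted p = 0.936). Sst had the lowest coefficient of variation of the 10 genes over 6 libraries, at 10.6%, with Vip and Tac1 close to it at 10.8% each.

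Npy stood at 28.3, 23.8 and 21.9 FPKM by the WT label against 21.7, 27.6 and 20.5 FPKM by the APP/PS1 label. WT replicate 1 and APP/PS1 replicate 2 were high and the other 4 lay within a narrow band. The log2 difference was -0.08 ± 0.13 (95% interval -0.40 to 0.23, limma adjusted p = 0.945). Cort, which encodes cortistatin, a peptide close to somatostatin that binds the same receptors, varied most: 1.55, 2.91 and 1.42 FPKM against 0.603, 2.14 and 1.69 FPKM. Its coefficient of variation was 44.8%, and its interval was the widest, from -0.99 to 0.44 around a log2 difference of -0.28 ± 0.30 (limma adjusted p = 0.920).

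Vip was listed at 2.84, 2.40 and 2.16 FPKM against 2.85, 2.78 and 2.57 FPKM, with the 2 lowest values in WT replicates 2 and 3. Its log2 difference was 0.11 ± 0.09 (95% interval -0.10 to 0.33, limma adjusted p = 0.884). Cck, which pyramidal neurons also express, stood at 81.3, 72.6 and 61.7 FPKM against 86.1, 67.3 and 68.9 FPKM. Its log2 difference was 0.04 ± 0.13 (95% interval -0.26 to 0.35, limma adjusted p = 0.974). WT replicate 3 was the lowest library for both genes. It was also the lowest for the summed neocortex layer markers Rorb, Cux2, Fezf2, Rspo1, Tbr1 and Lamp5, at 34.9 FPKM. The other WT-labelled libraries reached up to 48.7 FPKM in this sum, and the APP/PS1-labelled libraries lay between 41.4 and 47.0 FPKM. The markers differed: Cux2, Tbr1 and Lamp5 were lowest in WT replicate 3, at 3.27, 8.13 and 5.21 FPKM. Rorb and Rspo1, at 5.87 and 0.705 FPKM, were there at their highest by the WT label. Fezf2, at 11.7 FPKM, was there at its lowest by the WT label only, with 11.6 and 10.7 FPKM in APP/PS1 replicates 1 and 3. Lamp5 is also among the GABAergic markers used further on. The part of cortical tissue in the Vip and Cck values was not tested.

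The opioid precursor genes differed from each other by library. Penk, the precursor of the enkephalins, stood at 7.67, 7.96 and 10.9 FPKM against 11.6, 8.67 and 8.75 FPKM, high in WT replicate 3 and APP/PS1 replicate 1 and within a narrow band in the other 4. Its log2 difference was 0.12 ± 0.15 (95% interval -0.25 to 0.49, limma adjusted p = 0.934). Pdyn, the precursor of the dynorphins, stood at 2.28, 2.83 and 4.34 FPKM against 2.46, 3.02 and 1.88 FPKM, highest in WT replicate 3 and lowest in APP/PS1 replicate 3. Its log2 difference was -0.25 ± 0.20 (95% interval -0.72 to 0.22, limma adjusted p = 0.884). Prox1, the dentate granule cell transcription factor, was also highest in WT replicate 3 (20.0 FPKM) and lowest in APP/PS1 replicate 3 (12.7 FPKM). It had 15.5, 14.4, 14.2 and 13.7 FPKM in WT replicates 1 and 2 and APP/PS1 replicates 1 and 2. Among these 4, Pdyn was lowest in WT replicate 1, where Prox1 was highest. Pdyn was highest in APP/PS1 replicate 2, where Prox1 was lowest. Of the markers listed with Prox1 for pyramidal and granule neurons, Slc17a7 was lowest in WT replicate 3 (89.5 FPKM). Neurod6 and Camk2a were neither highest nor lowest there. The part of granule cell content in the Pdyn values was not tested. The ratio of Penk to Pdyn ran from 2.51 to 3.36 in the WT-labelled libraries and was 4.71, 2.87 and 4.64 in APP/PS1 replicates 1 to 3.

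The tachykinin genes were near the lower limit of the table. Tac1, which encodes substance P and neurokinin A, was listed at 1.04, 1.28 and 1.17 FPKM against 1.02, 1.31 and 1.27 FPKM, with overlapping labels and a log2 difference of 0.02 ± 0.09 (95% interval -0.20 to 0.24, limma adjusted p = 0.983). Tac2, which encodes neurokinin B, had 1.02, 1.27 and 1.03 FPKM by the WT label against 0.815, 0.787 and 0.677 FPKM by the APP/PS1 label, so all 3 APP/PS1-labelled values lay below all 3 WT-labelled ones. Its APP/PS1-labelled mean was 0.686 of the WT-labelled mean, and the log2 difference was -0.26 ± 0.09 (95% interval -0.47 to -0.05, limma unadjusted p = 0.0239, adjusted p = 0.692). The exact two-sided permutation p was 0.1, the smallest that 3 against 3 libraries allow, and 0.889 when adjusted over the 10 genes. Tac2 reached 1 FPKM in 3 libraries, all WT-labelled, so it entered the test through the group in which it was higher and its difference there is no independent result. Without any filter the unadjusted p was 0.0187 and the adjusted p = 0.670 (limma). The unadjusted p was no longer under 0.05 without WT replicate 2 or without APP/PS1 replicate 3 and lay between 0.00908 and 0.0851 over the alternatives.

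Crh, the corticotropin-releasing hormone gene, was under the filter, with 1 library at 1 FPKM or more. It was listed at 1.01, 0.834 and 0.413 FPKM against 0.473, 0.591 and 0.937 FPKM, and the labels overlapped. Fitted without the filter, its log2 difference was -0.06 ± 0.16 (95% interval -0.44 to 0.31, limma adjusted p = 0.976).

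**Figure D2:**
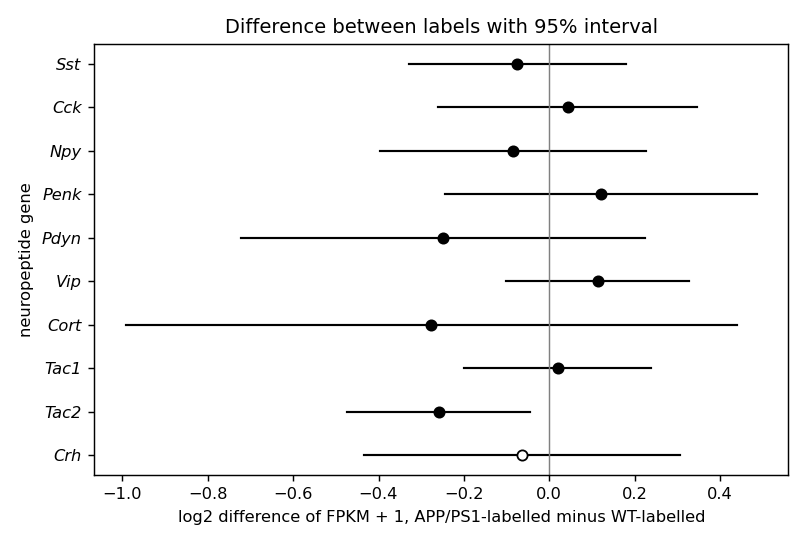
Log2 difference of FPKM + 1, APP/PS1-labelled minus WT-labelled, for each neuropeptide gene (y axis), with points for the estimate and bars for the 95% interval from limma; the open point is Crh, fitted without the filter. The intervals of 9 genes include 0, and that of Tac2 runs from -0.47 to -0.05.

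Leaving out both libraries that App set against their labels moved several estimates. In the 4 libraries left, Npy stood at 28.3 and 23.8 FPKM against 21.7 and 20.5 FPKM and had a log2 difference of -0.29 ± 0.10 (limma unadjusted p = 0.0285, adjusted p = 0.505). It was the 1 member of 9 with an unadjusted p under 0.05, a level that 9.18% of all genes reached in these 4 libraries. The adjusted threshold was passed by 0 members and by 0.197% of all genes. Penk had 0.33 ± 0.13 (adjusted p = 0.550), Sst -0.19 ± 0.08 (adjusted p = 0.572), Cort -0.60 ± 0.34 (adjusted p = 0.660) and Tac2 -0.30 ± 0.12 (adjusted p = 0.558), all by limma. Pdyn stood at -0.17, Vip at 0.04, Cck at 0.0035 and Tac1 at -0.014.

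**Figure D3:**
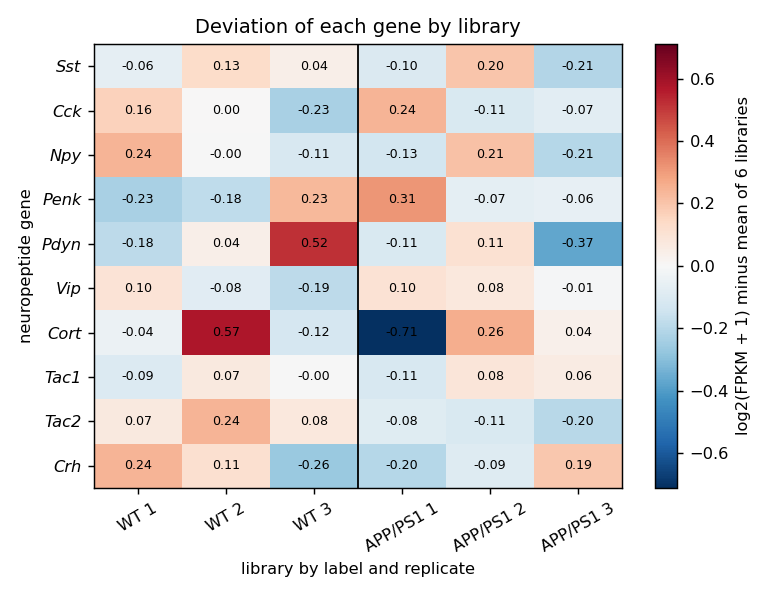
Each cell gives log2(FPKM + 1) of a neuropeptide gene (rows) in a library (columns) minus that gene's mean over the 6 libraries, with red above and blue below the mean. The largest deviations are in Cort (0.57 in WT replicate 2 and -0.71 in APP/PS1 replicate 1) and Pdyn (0.52 in WT replicate 3 and -0.37 in APP/PS1 replicate 3), and no column is of 1 colour throughout.

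The members did not move as a block from library to library. Of the 45 pairs of members, 23 had a positive Pearson r over the 6 libraries and 2 had an exact permutation p under 0.05, none after adjustment (lowest adjusted p = 0.775). The first was Tac1 with Cort (r = 0.80, exact p = 0.0333, adjusted p = 0.775; rho = 0.89, exact p = 0.0333, adjusted p = 0.771), with r = 0.72 once the 2 libraries farthest from the Tac1 median were left out. The other was Penk with Crh (r = -0.87, exact p = 0.0389, adjusted p = 0.775; rho = -0.77, exact p = 0.103, adjusted p = 0.771), and r = -0.52 without the 2 libraries farthest from the Penk median. By Pearson r over the 6 libraries, the genes most like Sst among 6969 genes with a mean of at least 5 FPKM were Elfn2 (0.98), Neurl1a (0.98) and Sec23b (0.97). Those most like Npy were Macrod1 (0.99), Gucy1a2 (0.99) and Cend1 (0.97), and Slc25a51 (0.99) and Vps53 (0.98) were among those most like Cck. In all, 15 genes had r above 0.95 with Sst, 12 with Npy and 16 with Cck. With 6 libraries and 6969 genes compared, values this high can arise between unrelated genes. No test was run on these matches, so they describe the libraries and do not show shared regulation.

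General GABAergic markers were then set beside the peptides. Of 20 markers tested, 12 were higher and 8 lower in the APP/PS1-labelled libraries with a median log2 difference of 0.05. By limma 0 had an unadjusted p under 0.05, against 6.69% of all genes tested. Gad1 and Gad2, the enzymes that make GABA, had 29.9 ± 2.16 against 31.6 ± 3.88 FPKM and 26.9 ± 6.23 against 31.0 ± 4.88 FPKM (SD, n = 3). Relative to the mean log2(FPKM + 1) of Gad1, Gad2 and the vesicular GABA transporter Slc32a1 in the same library, Sst differed between labels by -0.20 (exact permutation p = 0.3), Npy by -0.21 (exact p = 0.5) and Cort by -0.40 (exact p = 0.5). Penk differed by -0.00089 (exact p = 1.0) and Vip by -0.0083 (exact p = 1.0) on this scale. Gad1, Gad2 and Slc32a1 themselves had positive log2 differences by label, of 0.07, 0.21 and 0.08, which lowers every member on this scale. Every member had a negative difference on it, also Penk and Vip, at 0.12 and 0.11 before. With log2(FPKM + 1), Pdyn was the 1 member whose labels did not overlap on this scale, at -2.91, -2.70 and -2.56 against -3.09, -3.03 and -3.15 log2 units. Its difference was -0.37 (exact two-sided permutation p = 0.1, and 1.0 when adjusted over the 10 genes), and 4.64% of all genes tested did not overlap in this way.

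No gene on the list made for receptors of these peptides passed the test. The list also held Crhbp, which encodes a protein that binds CRH and is not a receptor. It held Oprl1 as well, the nociceptin receptor gene, whose ligand precursor Pnoc is not a member. Of 25 listed, 15 were tested, Crhbp and Oprl1 among them, 9 higher and 6 lower. The median log2 difference was 0.04, the value of Crhbp, and Oprl1 stood at -0.10. By limma 0 had an adjusted p under 0.05 and 1 an unadjusted p under 0.05, against 6.69% of all genes tested. That gene was Adcyap1r1, the PAC1 receptor that also binds VIP, at 22.6, 22.4 and 24.1 FPKM against 27.5, 27.6 and 24.5 FPKM (log2 difference 0.20 ± 0.06, unadjusted p = 0.0162, adjusted p = 0.642). Sstr4, the somatostatin receptor with the highest level, had 17.3 ± 1.37 against 15.8 ± 1.84 FPKM, and Sstr2 had 5.27 ± 0.352 against 4.49 ± 0.503 FPKM. The NPY receptor genes Npy1r and Npy2r had 7.58 ± 0.416 against 6.86 ± 0.611 FPKM and 6.50 ± 1.51 against 8.92 ± 3.34 FPKM, the latter with 12.5 FPKM in APP/PS1 replicate 1.

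No gene that cuts, trims or stores peptide precursors passed the test either. All 24 that had a row were tested, 14 higher and 10 lower with a median of 0.02. By limma 0 had an adjusted p under 0.05 and 3 an unadjusted p under 0.05, against 6.69% of all genes tested. Cpe, which encodes carboxypeptidase E and had the highest level of the list, stood at 447 ± 9.36 against 454 ± 7.52 FPKM. Pcsk1, the convertase PC1/3, was listed at 8.28, 7.90 and 6.81 FPKM against 6.10, 6.68 and 6.17 FPKM without overlap, as were 11.9% of all genes tested (log2 difference -0.24 ± 0.08, unadjusted p = 0.0192, adjusted p = 0.664). Vgf, a granule protein and peptide precursor induced by neuronal activity, was listed at 46.2, 55.0 and 47.3 FPKM against 36.4, 16.2 and 13.3 FPKM. Its labels did not overlap, and its log2 difference of -1.27 ± 0.36 had an unadjusted p = 0.0128 and an adjusted p = 0.639. Ptprn, a receptor-type phosphatase family protein of the granule membrane, was the third of these genes and had the opposite sign, at 65.5 ± 4.14 against 73.6 ± 5.37 FPKM with overlapping labels (log2 difference 0.17 ± 0.07, unadjusted p = 0.0481, adjusted p = 0.741).

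Activity genes were listed knowing from earlier results of these data that they were lower by label, so their direction is a description and no independent result. Of 21 tested, 20 were lower and 1 higher with a median log2 difference of -0.64. By limma 14 had an unadjusted p under 0.05, against 6.69% of all genes tested, but 0 an adjusted p under 0.05. Fosb had 4.86 ± 0.516 against 2.27 ± 0.531 FPKM and Egr1 74.9 ± 12.9 against 43.7 ± 9.31 FPKM (SD, n = 3). The difference between these genes and the neuropeptide genes was not tested.

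**Figure D4:**
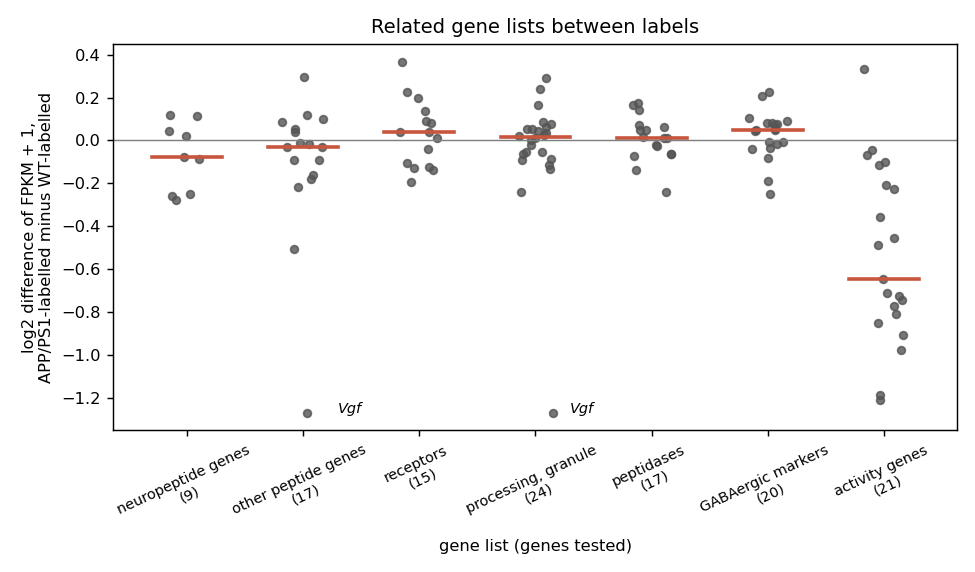
Log2 difference of FPKM + 1, APP/PS1-labelled minus WT-labelled (y axis), for the genes tested of each list (x axis, number tested in brackets); each point is a gene and each red line the list's median. The medians of the peptide, receptor, processing, peptidase and GABAergic lists lie between -0.07 and 0.05, that of the activity genes at -0.64, and Vgf, which is in both lists where it is named, at -1.27.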

How the data were processed

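Hippocampal total RNA was sequenced in 6 libraries built with an Illumina TruSeq kit, per the labels' protocols. The gene values deposited by the authors were read as FPKM from their decimals and from totals between 182355 and 185217 per library, since no header names the unit. FastQC, HISAT2, StringTie and the build mm9 are listed in the submitters' processing notes, without versions or roles. Members were matched by symbol. Rows that reached 1 FPKM in 3 or more libraries (13700 of 15639) were tested by label alone with limma 3.58.1 in R 4.3.3 (trend and robust settings), on log2(FPKM + 1), with Benjamini-Hochberg adjustment over all genes tested. A fold change on this scale understates the change of low genes. Single values were compared by exact two-sided permutation tests. The code was tested on simulated data. Members, lists and tests were chosen with earlier results of these data known. The text names all members, up to 4 genes of each list by smallest p and up to 4 by highest level, and the 3 genes most like a member; not all of these are printed, and 1 gene like Cck is not reported here. Alternatives were a pseudocount of 0.1, other filters and scalings, other limma settings, the replicate number as a block, a threshold of 0.1 and each library left out. Circular RNA tables were not used here. By start and end, RefSeq places a long non-coding gene over Cck and over Crh. Whether exons overlap was not examined, and the sources used here do not say whether counting used strand. Reads where these genes overlap may therefore not be told apart.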

Additional observations from a re-analysis of the deposited data

How the results depend on the processing

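No neuropeptide gene passed an adjusted p of 0.05 under any alternative run, nor at a threshold of 0.1. The number of members with an unadjusted p under 0.05 was 1, and it was 0 with the filter of at least 1 FPKM in all 6 libraries, which removes Tac2, and between 0 and 2 with single libraries left out (2, Sst and Tac2, without APP/PS1 replicate 2, where 7.05% of all genes had such a p; the share lay between 4.08% and 9.09% without other single libraries). Over all genes, 1 was higher and 2 lower. Single libraries left out gave between 1 and 8 higher and between 1 and 22 lower, the highest of both without APP/PS1 replicate 2. The 4 libraries gave 11 higher and 16 lower, array weights 2 higher, the threshold of 0.1 gave 3 higher and 4 lower, and the replicate block gave 0 lower. Same-numbered libraries had correlations of 0.0098, -0.056 and -0.094 between their deviations from the label means, and not every library correlated best with its own number. Such values cannot decide whether same-numbered libraries shared a litter or a run, which the labels do not give.

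Pdyn, Tac2 and Vip kept the sign of their log2 difference under the alternatives run, but single libraries moved Pdyn and Vip by over 1.5 times. Pdyn, at -0.25, reached -0.40 once WT replicate 1 was dropped, -0.052 once WT replicate 3 was, and -0.13 once APP/PS1 replicate 3 was. Vip, at 0.11, stood at 0.048 without WT replicate 3 and 0.19 without WT replicate 1. Tac2 ranged from -0.29 to -0.20 with single libraries left out and stood at -0.49 with a pseudocount of 0.1. With single libraries left out, the range was -0.21 to 0.015 for Npy, -0.19 to 0.011 for Sst, -0.068 to 0.14 for Cck, -0.0050 to 0.27 for Penk, -0.022 to 0.081 for Tac1 and -0.47 to 0.011 for Cort, so the sign of each of these 6 turned when at least 1 single library was left out. Tac1 was also at -0.0049 with array weights and at -0.014 in the 4 libraries, where Npy stood at -0.29, Penk at 0.33 and Cort at -0.60. Relative to the GABAergic markers, the range with single libraries left out was -0.19 to 0.13 for Vip, -0.30 to 0.075 for Cck and -0.12 to 0.15 for Penk. It was -0.40 (without WT replicate 3) to -0.046 (without WT replicate 1) for Npy, -0.31 (without WT replicate 3) to -0.097 (without WT replicate 2) for Sst, -0.64 (without WT replicate 3) to -0.10 (without APP/PS1 replicate 1) for Cort and -0.46 to -0.29 for Pdyn. On this scale and with a pseudocount of 0.1 Vip stood at 0.027 and Penk at 0.0072. Tac2 moved there from -0.38 to -0.61 (exact two-sided permutation p = 0.1), so that its labels no longer overlapped, as those of Pdyn. The share of all genes without overlap was not computed for that pseudocount. The cause of these changes was not tested. The unknown read depth limits Tac1, Tac2, Cort and Crh most, since they lie near 1 FPKM.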

Other observations

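Among other peptide precursor genes, Scg2 and Vgf had means of 51.0 and 35.7 FPKM over the 6 libraries, above Npy at 23.9. The other genes of this list lay below Npy. Of 36 listed, 17 were tested, 6 higher and 11 lower in the APP/PS1-labelled libraries with a median log2 difference of -0.03. By limma 0 had an adjusted p under 0.05 and 2, Vgf and Apln, an unadjusted p under 0.05, against 6.69% of all genes tested. Apln, the precursor of apelin, was listed at 3.21, 3.45 and 3.03 FPKM against 4.10, 4.14 and 4.36 FPKM without overlap, as were 11.9% of all genes tested (log2 difference 0.30 ± 0.07, unadjusted p = 0.00334, adjusted p = 0.508). Grp, the gastrin-releasing peptide gene, had between 9.56 and 12.7 FPKM against between 9.49 and 11.1 FPKM, and Scg2, the secretogranin II precursor, had 52.7 ± 6.89 against 49.2 ± 1.57 FPKM (SD, n = 3). Npff was listed at 0 in APP/PS1 replicate 3 and between 0.916 and 1.52 FPKM in the other libraries.

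Of 17 genes of peptidase families tested, 10 were higher and 7 lower with a median of 0.01. By limma 0 had an adjusted p under 0.05 and 2, Ide and Dpp10, an unadjusted p under 0.05, against 6.69% of all genes tested. The list was made by family, and whether each member cuts peptides was not examined. Ide, insulin-degrading enzyme, which also cleaves amyloid beta, was listed at 9.10, 8.45 and 9.05 FPKM against 10.4, 10.2 and 9.52 FPKM (log2 difference 0.16 ± 0.06, unadjusted p = 0.0280, adjusted p = 0.696).

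Marker genes of neighbouring tissue were summed in each library. Of 8 hypothalamic markers 1, Pomc, had a row, between 0.135 and 1.08 FPKM. Of 8 striatal markers 7 had a row, with sums between 24.98 and 37.6 FPKM by the WT label, a range that encloses that of 27.6 to 33.0 FPKM by the APP/PS1 label. Of 8 thalamic and habenular markers 6 had a row, 4 higher and 2 lower, with sums from 40.3 to 48.8 against 31.9 to 41.0 FPKM. Nr4a2, which is also on the list of activity genes, had 23.0 ± 6.06 against 13.8 ± 5.19 FPKM, and without it the sums were 18.9 to 21.5 against 20.05 to 23.3 FPKM. All 5 choroid plexus markers had a row and summed to between 851 and 1193 against 1106 and 1381 FPKM, nearly all of it Ttr, the transthyretin gene. All 5 were higher by the APP/PS1 label, 2 with an unadjusted p under 0.05 by limma, against 6.69% of all genes tested. These were Sostdc1 (19.0 ± 1.69 against 25.9 ± 2.39 FPKM, adjusted p = 0.367) and Folr1 (3.95 ± 0.723 against 5.31 ± 0.594 FPKM, adjusted p = 0.664). Neither overlapped between labels, as for 11.9% of all genes tested. The part of neighbouring tissue in the neuropeptide values was not tested.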
